A study of Homo sapiens with 6 samples.

Results

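The 10 genes described here encode matrix metalloproteinases (MMP1, MMP2, MMP3, MMP10, MMP12, MMP14 and MMP16) and tissue inhibitors of metalloproteinases (TIMP1, TIMP2 and TIMP3). They were followed through all probe sets whose platform annotation names one of these genes and no other, which gave 24 of the 54613 probe sets on the array. The 3 cell states were RB-KD OIS, Ctrl-KD OIS and growing IMR90 cells, with 2 biological replicates each. IMR90 is a line of human diploid lung fibroblasts, and all cells here carried an ER:Ras fusion that 4-hydroxytamoxifen (4-OHT) switches on. RB-KD OIS cells underwent oncogene-induced senescence (OIS) in 100 nM 4-OHT for 6 days and received a mixture of siRNAs against RB1 on day 2, 4 days before RNA isolation. Ctrl-KD OIS cells had the same 4-OHT treatment with a control siRNA. Growing cells had neither 4-OHT nor siRNA, so that Ras induction, 4-OHT and transfection cannot be told apart in a comparison with them.

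Matrix metalloproteinases are zinc-dependent proteases that are made as inactive proenzymes and cut collagens, elastin, proteoglycans and other proteins outside the cell. TIMPs bind the active site of these enzymes and block it, so that the balance of proteases and inhibitors sets how fast matrix is broken down. Senescent fibroblasts are known for secreting several metalloproteinases together with inflammatory cytokines, as part of the senescence-associated secretory phenotype.

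All values below are MAS5 signals, the linear brightness of a probe set as computed for one array, and they cannot be compared in level between probe sets. The median signal of the 6 arrays lay between 46 and 51.8, and a probe set under it is read here as dim. RB1 itself read 221.7 and 228.5 on the RB-KD OIS arrays, against 2578.2 and 1914.5 on the Ctrl-KD OIS arrays and 2627.2 and 2528.4 on the growing arrays (probe set 203132_at). All 11 fibroblast markers measured were above the median on all 6 arrays. Of the 24 member probe sets, 22 were above the array median on at least 2 arrays and were tested with limma, as part of a fit over 30139 probe sets with p values adjusted after Benjamini and Hochberg (BH). All 10 genes had at least 1 tested probe set, and each gene was counted through its brightest one. Replicates of the tested member probe sets differed by a median of 0.21 (RB-KD OIS), 0.17 (Ctrl-KD OIS) and 0.09 (growing) on the log2 scale.

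**Figure D1:**
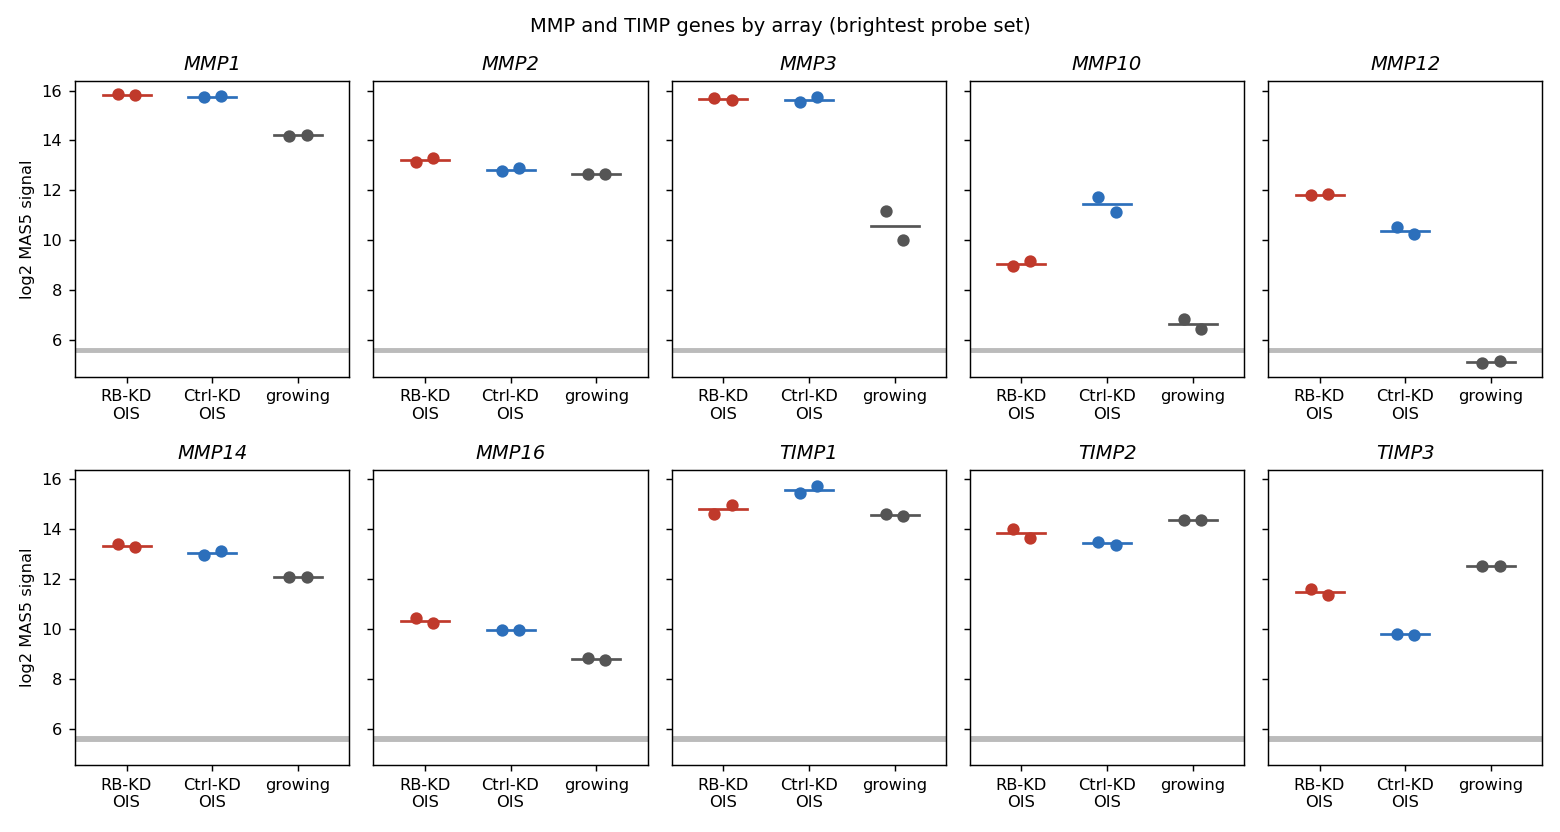
Log2 MAS5 signal of the brightest probe set of each gene (vertical) in RB-KD OIS, Ctrl-KD OIS and growing cells (horizontal), with 1 point per array, a line at the mean of 2 arrays and a grey band over the 6 array medians. MMP10 and TIMP1 peak in Ctrl-KD OIS cells, MMP12 is highest in RB-KD OIS cells, and TIMP3 is lowest in Ctrl-KD OIS cells.

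In Ctrl-KD OIS cells most of these protease genes were higher than in growing cells, and 2 of the 3 inhibitor genes were lower. In such bulk samples, fewer cells of a type and less RNA per cell cannot be told apart. By their brightest probe sets, 7 genes rose (MMP1, MMP3, MMP10, MMP12, MMP14, MMP16 and TIMP1), 2 fell (TIMP2 and TIMP3) and MMP2 did not pass the test. Over all tested probe sets 15.8% were called higher and 18.3% lower in this comparison (34.1% in either direction). Counted as genes through their brightest probe sets, 40.6% of 13398 were called in either direction, and 52.5% in a fit with 1 probe set per gene. Of the 22 member probe sets, 14 lay higher on both Ctrl-KD OIS than on both growing arrays and 7 lower, and such a gap in either direction was found for 67.8% of all tested probe sets. The median log2 fold change was 1.10 over the 10 genes and -0.05 over all tested probe sets. In RB-KD OIS cells, 7 genes rose against growing cells (all 7 MMP genes) and TIMP2 and TIMP3 fell, beside 14.0% of all probe sets called higher and 16.5% lower (30.5% in either direction), 36.5% of genes by their brightest probe sets and 48% in the fit with 1 probe set per gene. Here 14 member probe sets lay higher and 4 lower without overlap, beside 67.1% of all tested probe sets. TIMP1 did not pass the test there. The median was 1.39 over the 10 genes and -0.07 over all tested probe sets. Both comparisons use the same growing arrays. Centring each array on its median shifted all changes of RB-KD OIS against growing cells by 0.11 and gave 58.0% of all calls as higher there, beside 46.0% without it.

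Of the 10 genes, 6 differed between the OIS states, in both directions (fold changes between them are RB-KD over Ctrl-KD). MMP12, MMP2, TIMP2 and TIMP3 were higher with RB-KD than with Ctrl-KD in OIS, MMP10 and TIMP1 were lower, and MMP1, MMP3, MMP14 and MMP16 did not pass the test by their brightest probe sets. Over all tested probe sets, 8.96% were called higher and 7.93% lower (16.9% in either direction), as were 21.9% of genes by their brightest probe sets and 32.5% in the fit with 1 probe set per gene. The median log2 fold change was 0.33 over the 10 genes and -0.02 over all tested probe sets. Both arrays of one OIS state lay outside those of the other for 17 of the 22 tested member probe sets (15 higher and 2 lower in RB-KD OIS cells), beside 55.3% of all probe sets. With 2 arrays against 2, exact permutation (two-sided) gives no p below 0.333, so single genes were tested only through the fit across all probe sets.

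**Figure D2:**
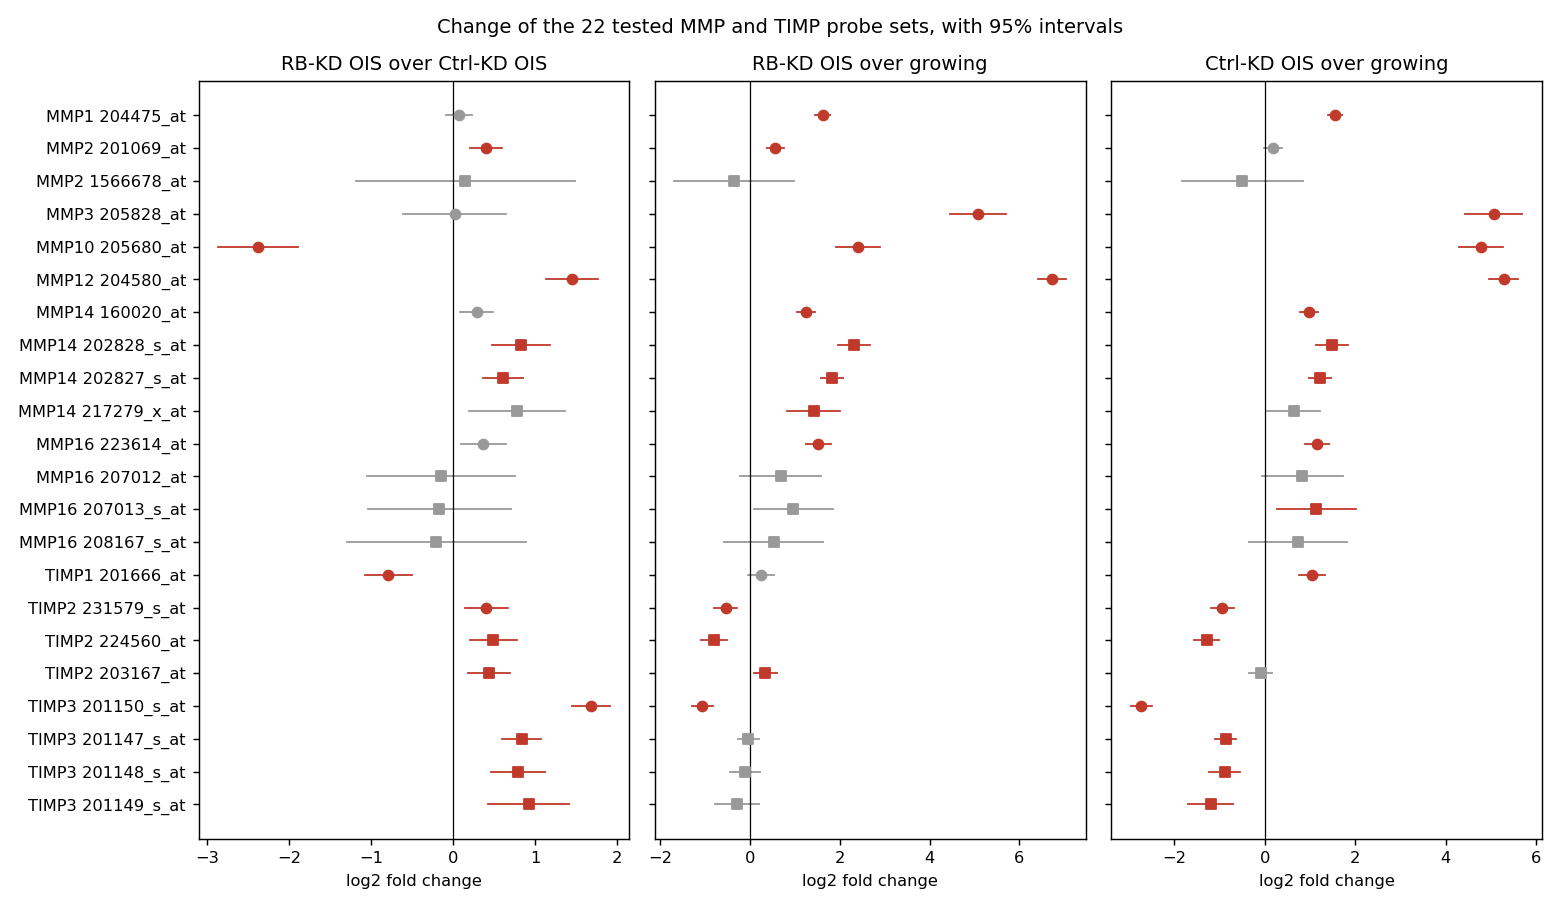
Log2 fold change (horizontal) with its 95% interval from limma for the 22 tested member probe sets (vertical), in RB-KD over Ctrl-KD OIS, RB-KD OIS over growing and Ctrl-KD OIS over growing cells, with n = 2 arrays per state. Circles mark the brightest probe set of a gene, squares the others, and red marks a BH-adjusted p under 0.05. MMP10 lies at -2.38 and TIMP3 at 1.68 in the first panel.

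MMP1, the interstitial collagenase that opens fibrillar collagen, was among the brightest probe sets of the whole array in both OIS states. Its only probe set (204475_at) read 58796.8 and 57410.4 in RB-KD OIS cells, 54241.6 and 56411.3 in Ctrl-KD OIS cells and 18529.3 and 19328 in growing cells. The OIS arrays thus lay far above the growing arrays and close to each other. The log2 fold change against growing cells was 1.62 in RB-KD OIS (standard error 0.07, BH-adjusted p = 4.35e-07) and 1.55 in Ctrl-KD OIS cells (standard error 0.07, BH-adjusted p = 4.2e-07). Between the OIS states it was 0.07 (95% interval -0.09 to 0.23, BH-adjusted p = 0.563), and it turned to -0.04 under quantile normalization. On the first Ctrl-KD OIS array no probe set was brighter than MMP1, and on the other OIS arrays 2 to 10 of the 54613 were. The files carry no mark of saturation, so the size of these rises and the lack of a difference between the OIS states are uncertain at this end of the scale.

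The stromelysins MMP3 and MMP10 cut proteoglycans, fibronectin and laminin, and can activate other proenzymes such as that of MMP1. MMP3 (205828_at) read 52723.9 and 50760.5 in RB-KD OIS cells, 48175 and 54237.5 in Ctrl-KD OIS cells and 2283.7 and 1024 in growing cells. It was 33.8-fold higher in RB-KD OIS and 33.4-fold higher in the Ctrl-KD OIS state than in growing cells (BH-adjusted p = 1.71e-06 and 1.26e-06). Its OIS signals overlapped, with a log2 fold change of 0.02 between them (95% interval -0.61 to 0.65, BH-adjusted p = 0.978) that turned to -0.09 under quantile normalization. Only 8 to 38 probe sets were brighter on the OIS arrays, so the limit named for MMP1 holds here too. The growing arrays differed from each other by 1.16 on the log2 scale, the widest gap among the tested member probe sets in growing cells.

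MMP10, unlike MMP3, was called different between the OIS states. Its probe set (205680_at) read 499.6 and 573 in RB-KD OIS cells, 3434.9 and 2247.1 in Ctrl-KD OIS cells and 114.8 and 88 in growing cells. The 3 states did not overlap, and none of the signals was near the top of the scale or under the array median. MMP10 was 27.6-fold higher in the Ctrl-KD OIS state than in growing cells (log2 fold change 4.79, standard error 0.22, BH-adjusted p = 3.84e-07). RB-KD OIS cells kept a 5.32-fold rise over growing cells (log2 fold change 2.41, BH-adjusted p = 3.83e-05). Against Ctrl-KD OIS cells, MMP10 was 5.19-fold lower in RB-KD OIS cells (log2 fold change -2.38, standard error 0.22, BH-adjusted p = 0.000147), the largest fall among the member probe sets. The promoter of MMP10 is shown because of this fall. It is taken from RefSeq (GRCh38.p14, chr11:102780579-102780878, minus strand) and runs from 250 bases before to 50 bases after the annotated start, with the motif matches in capitals:
MMP10: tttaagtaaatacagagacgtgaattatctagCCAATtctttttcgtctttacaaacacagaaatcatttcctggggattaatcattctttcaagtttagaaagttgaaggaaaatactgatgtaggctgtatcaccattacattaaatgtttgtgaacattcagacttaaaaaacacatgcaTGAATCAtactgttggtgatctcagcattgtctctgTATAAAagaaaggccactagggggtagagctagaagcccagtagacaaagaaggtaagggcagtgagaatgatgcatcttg
Of the motifs searched on both strands, this window held TATAAA (the TATA box, at -31 to -26 from the start), CCAAT (at -218 to -214) and TGANTCA (an AP-1 site with any middle base, at -67 to -61, with the letters TGAATCA). It did not hold the AP-1 letters TGAGTCA. Of 35116 human promoters of this length, 11.5% held TATAAA, 34.6% CCAAT, 7.71% TGANTCA and 4.95% TGAGTCA, which is also counted under TGANTCA.

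MMP12, the macrophage metalloelastase that cuts elastin, had the largest rise of the 10 genes in RB-KD OIS against growing cells. Its probe set (204580_at) read 3629 and 3659.9 in RB-KD OIS cells, 1459.3 and 1230.4 in Ctrl-KD OIS cells and 33.5 and 35.7 in growing cells. Both growing signals were under the median of their arrays, and the states did not overlap. Set against the array medians, MMP12 was at least 72.0-fold higher in RB-KD OIS cells and at least 26.5-fold higher in Ctrl-KD OIS cells. The fit on the signals as read called both rises (BH-adjusted p = 5.02e-09 and 1.98e-08). MMP12 was 2.72-fold higher with RB-KD than with Ctrl-KD in OIS (log2 fold change 1.44, standard error 0.14, BH-adjusted p = 0.000228). MMP12 passed the filter through its OIS arrays alone. The macrophage markers measured (6 of 7 listed) summed to 256.7 to 340.5 in RB-KD OIS, 219.1 to 320.4 in Ctrl-KD OIS and 239.8 to 274.4 in growing cells. CD14, CD163 and AIF1 were under the median on all 6 arrays, PTPRC, the pan-leukocyte antigen gene, was above it on 1 growing array, and CSF1R was above it on all 6. ITGAM read 76.5 and 43 in RB-KD OIS, 84.2 and 79.6 in Ctrl-KD OIS and 34.7 and 28.8 in growing cells, above the median on 3 OIS arrays and no growing array. The part of these markers in the rise of MMP12 was not tested.

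MMP2 is gelatinase A, which cuts denatured collagen and the collagen of basement membranes, and its proenzyme is activated at the cell surface by membrane-type enzymes. Its main probe set (201069_at) read 9081.5 and 10170.9 in RB-KD OIS cells, 7066.1 and 7527.8 in Ctrl-KD OIS cells and 6535.1 and 6412 in growing cells. The arrays of the 3 states did not overlap, but the steps were small. RB-KD OIS cells were 1.48-fold higher than growing (BH-adjusted p = 0.001) and 1.32-fold higher than Ctrl-KD OIS cells (log2 fold change 0.40, standard error 0.09, BH-adjusted p = 0.0137). The difference of Ctrl-KD OIS from growing cells was 0.17 (95% interval -0.02 to 0.37, BH-adjusted p = 0.166), and it passed under median centring (BH-adjusted p = 0.0451). The call between the OIS states ended without the second RB-KD OIS array (BH-adjusted p = 0.0835) and with an untrended prior variance (0.135). Of the other MMP2 probe sets, 1566678_at read 28.9 to 76.8, above the median on 4 of 6 arrays, and 1566677_at read 2.5 to 13.5, under it on all 6, and was not tested. Averaged over all 3 probe sets, the changes of MMP2 in RB-KD OIS cells turned to -0.17 against growing and -0.18 against Ctrl-KD OIS cells (BH-adjusted p = 0.814 and 0.835).

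MMP14 and MMP16 are membrane-anchored metalloproteinases that can activate the proenzyme of MMP2, MMP14 in a complex with TIMP2. The brightest MMP14 probe set (160020_at) read 10856.1 and 9959.2 in RB-KD OIS cells, 8073.7 and 9015.9 in Ctrl-KD OIS cells and 4334.5 and 4373.5 in growing cells. It was 2.39-fold higher in RB-KD OIS and 1.96-fold higher in the Ctrl-KD OIS state than in growing cells (BH-adjusted p = 8.99e-06 and 3.11e-05). All 4 MMP14 probe sets rose in RB-KD OIS cells, with log2 fold changes of 1.26 to 2.31, but the call of 217279_x_at (1.42) ended with an untrended prior variance (0.0555), and its value ranged from 0.93 to 1.91 with arrays left out. Of the same 4, 3 rose in Ctrl-KD OIS cells, and 217279_x_at, whose type of probe set can match other transcripts, had 0.64 (BH-adjusted p = 0.0888). Whether MMP14 was called different between the OIS states depended on the probe set. With RB-KD against Ctrl-KD in OIS 202828_s_at and 202827_s_at were called higher, by 0.82 and 0.61 on the log2 scale (BH-adjusted p = 0.00717 and 0.0047). Not called were 160020_at with 0.29 (95% interval 0.08 to 0.49, BH-adjusted p = 0.0576) and 217279_x_at with 0.78 (0.20 to 1.37, BH-adjusted p = 0.0717). The value of 160020_at passed under quantile normalization (0.0383), median centring (0.0463), the filter at percentile 70 (0.0378) and 1 probe set per gene (0.0346). It also passed without the second Ctrl-KD OIS array (log2 fold change 0.37). The mean of all 4 MMP14 probe sets had 0.62 (BH-adjusted p = 0.014). The calls of 202828_s_at and 202827_s_at ended with an untrended prior variance (0.111 and 0.0811). All 4 probe sets read higher on both RB-KD than on both Ctrl-KD OIS arrays.

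The promoter of MMP14 was also available (RefSeq, GRCh38.p14, chr14:22836335-22836634, plus strand, motif matches in capitals):
MMP14: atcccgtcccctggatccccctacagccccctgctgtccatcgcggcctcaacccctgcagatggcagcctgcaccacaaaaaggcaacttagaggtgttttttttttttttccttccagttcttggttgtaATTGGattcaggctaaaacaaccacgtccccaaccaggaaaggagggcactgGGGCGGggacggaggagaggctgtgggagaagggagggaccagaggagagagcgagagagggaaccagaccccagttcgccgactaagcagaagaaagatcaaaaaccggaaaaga
It held 1 GC box (GGGCGG, at -66 to -61) and 1 CCAAT box on the opposite strand (at -118 to -114), and no match to the TATA box or to an AP-1 site. A GC box stood in 45.0% of all promoters of this length.

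MMP16 was read by 5 probe sets, of which only 223614_at was well above the array median on all arrays. This one read 1367.8 and 1214.6 in RB-KD OIS cells, 1000.3 and 997.1 in Ctrl-KD OIS cells and 459.1 and 437 in growing cells. It was 2.88-fold higher in RB-KD OIS and 2.23-fold higher in the Ctrl-KD OIS state than in growing cells (BH-adjusted p = 1.76e-05 and 6.91e-05), with no overlap of states. Between the OIS states the log2 fold change was 0.37 (95% interval 0.10 to 0.64, BH-adjusted p = 0.0674), which passed with the stricter filter (0.0416) and with 1 probe set per gene (0.0407). With the MMP16 probe sets averaged, it was -0.08 (BH-adjusted p = 0.898). That mean had 0.94 in RB-KD OIS against growing cells, where the call ended (BH-adjusted p = 0.0544). The other 4 probe sets lay between 10.8 and 145.6 on all arrays. Between the OIS states they had -0.15 to -0.24, and none was called. Of these 4 probe sets, 207013_s_at rose in Ctrl-KD OIS over growing cells by 1.14 (BH-adjusted p = 0.0469). This call held without the first growing array but ended when any other array was left out (log2 fold changes 0.81 to 1.40). It also ended with no filter (0.085), an untrended prior variance (0.0597), only the 2 states compared (0.069) and the replicate block (0.0578).

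TIMP1 inhibits most secreted metalloproteinases and also acts as a growth factor. It was the one inhibitor that rose in Ctrl-KD OIS cells. Its probe set (201666_at) read 25077.2 and 32438 in RB-KD OIS cells, 44683.8 and 54364.6 in Ctrl-KD OIS cells and 24625 and 23292.6 in growing cells. Ctrl-KD OIS arrays lay well above the rest, and both RB-KD OIS arrays lay above the growing ones, the first by little. The log2 fold change was 1.04 for Ctrl-KD OIS over growing cells (standard error 0.13, BH-adjusted p = 0.000209) and -0.79 for RB-KD over Ctrl-KD OIS cells (standard error 0.13, BH-adjusted p = 0.00326), a 1.73-fold lower signal. RB-KD OIS cells had 0.25 against growing cells (95% interval -0.04 to 0.54, BH-adjusted p = 0.177), which passed under median centring (0.042) and without the first RB-KD OIS array (0.0434). The call between the OIS states ended with an untrended prior variance (0.0939). On the Ctrl-KD OIS arrays only 36 and 17 probe sets were brighter, and saturation there was not tested.

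TIMP2 blocks MMP2 and, bound to MMP14, also takes part in activating its proenzyme. Its brightest probe set (231579_s_at) read 16615.8 and 12849.5 in RB-KD OIS cells, 11473.3 and 10629.6 in Ctrl-KD OIS cells and 21027.1 and 21266.4 in growing cells. The second, 224560_at, had 7649.8 and 6429.2 in RB-KD OIS, 5543.7 and 4494.1 in Ctrl-KD OIS and 11409.7 and 13012.6 in growing cells. Both were lowest in Ctrl-KD OIS cells, with RB-KD OIS cells in between. They fell by 0.94 and 1.29 on the log2 scale in Ctrl-KD OIS cells (BH-adjusted p = 0.000191 and 4.68e-05) and, in RB-KD OIS cells, fell by 0.53 and 0.80 (BH-adjusted p = 0.00653 and 0.00121), each against growing cells. In RB-KD OIS cells the call of 231579_s_at ended with an untrended prior variance (0.0894) and with the probe sets of TIMP2 averaged (-0.33, 0.0613). The third, 203167_at, did not share this fall. It read 1933.1 and 1651.9 in RB-KD OIS cells, 1335.3 and 1305.9 in Ctrl-KD OIS cells and 1443.3 and 1371.4 in growing cells, and was called higher in the RB-KD OIS state than in growing cells (log2 fold change 0.35, BH-adjusted p = 0.0432).

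All 3 TIMP2 probe sets were called higher with RB-KD than with Ctrl-KD in OIS, by 0.40, 0.49 and 0.44 on the log2 scale (BH-adjusted p = 0.0401, 0.0273 and 0.0271). These calls were close to the threshold, and all 3 ended with an untrended prior variance (0.22, 0.183 and 0.132). That of the brightest also ended with no filter (0.0683) and in the fit on the 2 OIS states alone (0.0768), as did that of 203167_at in this last fit (0.0539). With arrays left out, that of the brightest probe set ended without any 1 array but the second RB-KD OIS array (0.0619 to 0.211), that of 224560_at without the second Ctrl-KD OIS (0.121) or the first RB-KD OIS array (0.181), and that of 203167_at without the same arrays as the brightest (0.0579 to 0.159). The rise of 203167_at over growing cells ended without either growing array (0.132 and 0.222) or the first RB-KD OIS array (0.225), with no filter (0.0674) and with an untrended prior variance (0.133).

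TIMP3 binds to the extracellular matrix and, beyond MMPs, inhibits sheddases such as ADAM17. It fell in Ctrl-KD OIS cells and was higher with RB-KD than with Ctrl-KD in OIS on all 4 probe sets. The brightest (201150_s_at) read 3068.9 and 2622.8 in RB-KD OIS cells, 898.2 and 876.3 in Ctrl-KD OIS cells and 5924.4 and 5902.7 in growing cells. The states did not overlap, and the pairs of arrays lay close together. TIMP3 was 6.67-fold lower in the Ctrl-KD OIS state than in growing cells (log2 fold change -2.74, standard error 0.10, BH-adjusted p = 1.5e-07), 3.20-fold higher with RB-KD than with Ctrl-KD in OIS (log2 fold change 1.68, standard error 0.10, BH-adjusted p = 1.62e-05) and still 2.08-fold lower in the RB-KD OIS state than in growing cells (log2 fold change -1.06, BH-adjusted p = 6.19e-05). Among all member probe sets this was the largest rise between the OIS states.

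The other 3 TIMP3 probe sets showed smaller changes in the same directions between the OIS states. They fell by 0.87, 0.89 and 1.20 (log2) in Ctrl-KD OIS cells (201147_s_at, 201148_s_at and 201149_s_at, BH-adjusted p = 0.0002, 0.00124 and 0.00232) and were higher by 0.84, 0.79 and 0.92 with RB-KD than with Ctrl-KD in OIS (BH-adjusted p = 0.000946, 0.00648 and 0.0206). Against growing cells the RB-KD OIS values were -0.03, -0.11 and -0.28, and none passed (BH-adjusted p = 0.856, 0.64 and 0.378). The first of these read 1883 and 2073.7 in RB-KD OIS cells, 1160.1 and 1057.5 in Ctrl-KD OIS cells and 1967.6 and 2073.3 in growing cells. A difference of TIMP3 between RB-KD OIS and growing cells was thus called on the brightest probe set alone. Between the OIS states the calls of 201148_s_at and 201149_s_at ended with an untrended prior variance (BH-adjusted p = 0.0794 and 0.11). That of 201149_s_at also ended without the first Ctrl-KD OIS, the first RB-KD OIS or the second RB-KD OIS array (log2 fold changes 0.62, 1.00 and 0.84). That of 201148_s_at also ended without the first RB-KD OIS array (0.68). The summed signal of the 4 endothelial markers was 1419.3 to 1557.3 in RB-KD OIS, 510.3 to 531.6 in Ctrl-KD OIS and 1286 to 1416.8 in growing cells. Of the 4, TEK alone read lower on both Ctrl-KD OIS arrays than on the others, with 1378.5 and 1211.3 in RB-KD OIS, 376.7 and 301.7 in Ctrl-KD OIS and 1250.3 and 1127.4 in growing cells. PECAM1 read 107 and 164.9 in RB-KD OIS, 107.7 and 123.3 in Ctrl-KD OIS and 98.1 and 104.7 in growing cells, above the median on all 6 arrays. VWF was above it on 3 arrays, and CDH5, which defines endothelial cells, was under it on all 6. The 11 fibroblast markers summed to 177938 to 210232.7 in RB-KD OIS, 163541.7 to 165368.4 in Ctrl-KD OIS and 241293.5 to 244809.2 in growing cells. The brightest probe sets of TIMP2 and TIMP3 had the same order of states as this sum, but not all markers did. By their means, COL1A2, COL3A1, LUM, THY1, PDGFRB and S100A4 had this order. COL1A1 and VIM were highest in RB-KD OIS cells, FN1 and DCN were lowest there, and FAP was higher in both OIS states than in growing cells. The part of both marker lists in these results was not tested.

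The other available promoters were those of TIMP1 and TIMP3 (RefSeq, GRCh38.p14, chrX:47582186-47582485 and chr22:32801455-32801754, both plus strand, motif matches in capitals):
TIMP1: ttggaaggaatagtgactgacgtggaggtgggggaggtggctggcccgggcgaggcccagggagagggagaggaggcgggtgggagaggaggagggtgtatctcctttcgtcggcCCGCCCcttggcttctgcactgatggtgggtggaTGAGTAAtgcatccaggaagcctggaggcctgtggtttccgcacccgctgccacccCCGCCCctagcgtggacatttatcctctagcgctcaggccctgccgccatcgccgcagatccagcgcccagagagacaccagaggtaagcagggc
TIMP3: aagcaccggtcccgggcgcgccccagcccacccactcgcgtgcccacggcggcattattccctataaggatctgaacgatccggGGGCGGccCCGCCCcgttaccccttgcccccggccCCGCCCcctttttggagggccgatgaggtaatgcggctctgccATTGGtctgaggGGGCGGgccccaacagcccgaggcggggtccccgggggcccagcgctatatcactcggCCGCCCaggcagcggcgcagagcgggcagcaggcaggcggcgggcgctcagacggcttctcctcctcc
TIMP1 held 2 GC boxes (at -135 to -130 and -45 to -40, both on the opposite strand) and the letters TGAGTAA (at -101 to -95), an AP-1 variant present in 2.57% of all promoters of this length. TIMP3 held 5 GC boxes between -166 and -13, 1 CCAAT box on the opposite strand (at -88 to -84), and no form of the AP-1 letters searched. Neither window held TATAAA. In the RefSeq annotation TIMP1 lies within the synapsin gene SYN1 and TIMP3 within SYN3, TIMP2 overlaps CEP295NL, and MMP1 lies within the pseudogene WTAPP1, which MMP3 overlaps. The table held promoters of 4 of the 10 genes.

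MMP10, MMP1, MMP3 and MMP12 lie next to each other in a cluster of MMP genes on chromosome 11, in that order, and the cluster allowed a comparison of neighbours. In the RefSeq order the 9 protein-coding genes of the cluster are MMP7, MMP20, MMP27, MMP8, MMP10, MMP1, MMP3, MMP12 and MMP13. The 4 adjacent members all rose in both OIS states. Between the OIS states they parted, with MMP10 at one end lower (-2.38), MMP12 at the other end higher (1.44) and MMP1 and MMP3 between them at 0.07 and 0.02. These last 2 values are uncertain, since MMP1 and MMP3 lay near the top of the scale in both OIS states. MMP20 and MMP13 were under the array median on all 6 arrays, MMP8, the neutrophil collagenase, was above it on 1 array, and MMP27 read 23.2 to 76.5. MMP7, the matrilysin, read 93.5 and 100 in RB-KD OIS cells, 101.7 and 58 in Ctrl-KD OIS cells and 21.7 and 42.8 in growing cells. It passed the filter through its OIS arrays alone. It was at least 1.91-fold higher in the RB-KD OIS state than in growing cells against the array medians. The fit on the signals as read called this rise (BH-adjusted p = 0.0349), a call that ended with no filter (0.0578). Ctrl-KD OIS cells did not pass (BH-adjusted p = 0.074).

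**Figure D3:**
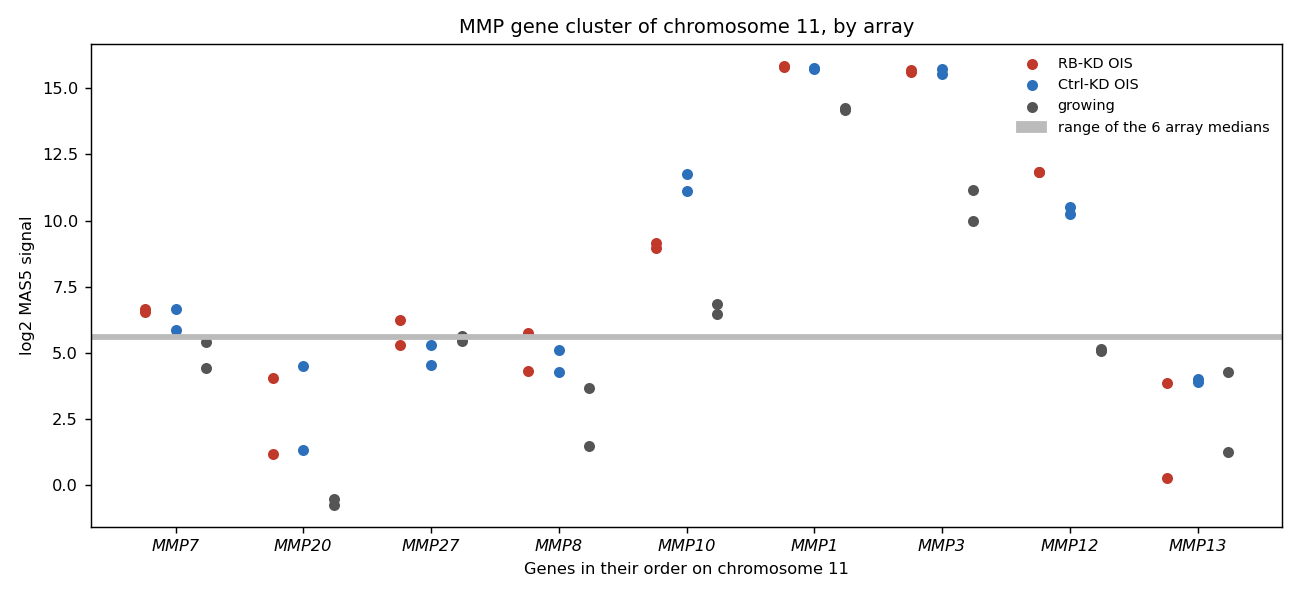
Log2 MAS5 signal (vertical) of the brightest probe set of 9 MMP genes in their order on chromosome 11 (horizontal), with 1 point per array for RB-KD OIS, Ctrl-KD OIS and growing cells and a grey band over the 6 array medians. Levels cannot be compared between genes. The block from MMP10 to MMP12 lies above the band in both OIS states, and MMP10 and MMP12 differ between the OIS states in opposite directions. MMP1 and MMP3 lie near the top of the scale in both OIS states, so a difference there may be hidden.

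Of 17 other MMP family genes listed, 16 had a probe set and 8 were tested. The counts of this and the next lists are by brightest probe sets, as are the shares of all genes called higher and lower, which were 18.0% and 18.4% for RB-KD OIS over growing, 19.9% and 20.7% for Ctrl-KD OIS over growing and 11.6% and 10.3% for RB-KD over Ctrl-KD in OIS. In RB-KD OIS cells 2 were higher (MMP7 and MMP9) and 3 lower (MMP11, MMP19 and TIMP4) than growing cells, in Ctrl-KD OIS cells 1 was higher (MMP9) and 0 lower, and with RB-KD against Ctrl-KD in OIS 0 were higher and 1 (MMP19) lower. MMP9, gelatinase B, read 329.1 and 260.2 in RB-KD OIS cells, 288 and 230.4 in Ctrl-KD OIS cells and 154.2 and 134.3 in growing cells (log2 fold changes against growing 1.02 and 0.84, BH-adjusted p = 0.00635 and 0.0148). TIMP4 changed by -1.73 in RB-KD OIS cells (BH-adjusted p = 0.0156), with 53.7 and 38.5 in RB-KD OIS, 56.3 and 127 in Ctrl-KD OIS and 149.4 and 151.4 in growing cells. MMP19 was 1.63-fold lower with RB-KD than with Ctrl-KD in OIS (BH-adjusted p = 0.0219), and MMP11, stromelysin-3, changed by -0.84 in RB-KD OIS against growing cells (BH-adjusted p = 0.0268). The median over the tested genes of this list was 0.38 for RB-KD OIS and 0.04 for Ctrl-KD OIS over growing cells and 0.08 between the OIS states. These small counts rested on single arrays, with 0 lower in RB-KD OIS against growing cells without the first growing array and 0 higher without the first RB-KD OIS array.

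Of 26 listed activators, inhibitors and partners of MMPs, 21 were tested. Against growing cells, 9 were higher and 4 lower in the RB-KD OIS state, and 8 and 5 in the Ctrl-KD OIS state. Between the OIS states, 7 were higher with RB-KD and 1 was lower. The medians were 0.12, 0.05 and 0.03 on the log2 scale. RECK, a membrane-anchored inhibitor of MMP2, MMP9 and MMP14, fell in both OIS states. It read 635.9 and 693.5 in RB-KD OIS cells, 761.2 and 714.3 in Ctrl-KD OIS cells and 5015.2 and 5185.6 in growing cells. RECK was 7.68-fold lower in RB-KD OIS and 6.92-fold lower in the Ctrl-KD OIS state than in growing cells (BH-adjusted p = 1.33e-07 and 1.59e-07), with a log2 fold change of -0.15 between them (95% interval -0.39 to 0.09, BH-adjusted p = 0.395). TFPI2, a secreted inhibitor of plasmin and several MMPs, had 42424 and 45861.8 in RB-KD OIS, 46543.5 and 48159.2 in Ctrl-KD OIS and 4511.7 and 3483.7 in growing cells. This was an 11.1-fold and an 11.9-fold rise over growing cells (BH-adjusted p = 7.72e-08 and 5.92e-08). The OIS signals of TFPI2 lay near those of TIMP1 in Ctrl-KD OIS cells, and saturation was not tested here either. The size of these rises is thus uncertain.

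Among the proteases of this list, 2 of the 3 cathepsins, CTSK and CTSL, differed in opposite directions between the OIS states, and CTSB had -0.08 (BH-adjusted p = 0.592). CTSK, cathepsin K, a lysosomal collagenase, read 7000.6 and 5262 in RB-KD OIS cells, 2088.2 and 1961.6 in Ctrl-KD OIS cells and 892.2 and 1098.9 in growing cells. Its log2 fold change between the OIS states was 1.58 (BH-adjusted p = 0.00018). CTSL, cathepsin L, was 2.99-fold higher in the Ctrl-KD OIS state than in growing cells (BH-adjusted p = 7.55e-07), and 1.78-fold lower with RB-KD than with Ctrl-KD in OIS (BH-adjusted p = 0.000206), with 7755.9 and 8030.7 in RB-KD OIS, 13981.4 and 14158.7 in Ctrl-KD OIS and 4889.7 and 4538.4 in growing cells. PLAT, the tissue plasminogen activator, was 2.26-fold higher with RB-KD than with Ctrl-KD in OIS (BH-adjusted p = 0.00152). The matrix proteins THBS1 and THBS2, which bind MMP2, were higher by 0.93 and 0.90 on the log2 scale with RB-KD than with Ctrl-KD in OIS (BH-adjusted p = 0.00128 and 0.0126). Against growing cells THBS1 had -1.66 in Ctrl-KD OIS cells (BH-adjusted p = 9.81e-06) and THBS2 had 2.27 in RB-KD OIS cells (BH-adjusted p = 2.91e-05). Of 23 related adamalysin proteases (ADAM and ADAMTS), 21 were tested, with 5 higher and 7 lower in RB-KD OIS and 4 higher and 7 lower in the Ctrl-KD OIS state than in growing cells. With RB-KD against Ctrl-KD in OIS 2 were higher and 1 lower, and the list medians were -0.12, -0.52 and 0.18. Of the 2 higher ones, ADAMTS15 passed the filter through its RB-KD OIS arrays alone. It read 70.9 and 78.7 in RB-KD OIS, 4.7 and 5.8 in Ctrl-KD OIS and 33.7 and 25.1 in growing cells.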

How the data were processed

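RNA of 2 biological replicates per state was read on Affymetrix U133 Plus 2.0 arrays. The deposited intensity values are linear MAS5 signals that the authors made with Affymetrix Expression Console (versions not given in the sources used here), without detection calls. Arrays share a scale, with trimmed means of 496.15 to 496.46. The number of arrays limits the precision.

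Signals were turned into log2 values with no offset. A probe set entered the fit where at least 2 arrays read it above their median. limma 3.58.1 (R 4.3.3) fitted the state means of all 6 arrays with a trended prior, and BH adjustment ran over all 30139 probe sets, with a threshold of 0.05. Probe sets took a gene where the platform table names 1 (41091), while 1801 name several and 11721 none here. Symbols were updated by gene ID. For a state whose 2 arrays were under the array median, the median replaced the signal and the fold is written "at least". The p values beside such folds are of the fit on the signals as read. The fit was tested on simulated data, with no values given here. Its p values set a difference against the spread between replicate arrays, together with the prior over all tested probe sets.

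Named genes are the 10 members with every probe set, RB1, the neighbours in the cluster, and per comparison up to 4 called genes of the other MMP family and of the partners with the largest change. CTSB, ADAMTS15 and the cell type markers are named besides these to show limits. Members and lists were chosen with earlier results of these data known, and motifs with the promoters in view. Tried as alternatives were quantile normalization, centring on array medians, adding 12.5 to all signals, dropping the filter or setting it at percentile 70, 1 probe set per gene, averaging a gene's probe sets, a prior without trend, fits on the compared states alone, replicate blocks and fits without each array.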

Additional observations from a re-analysis of the deposited data

How the results depend on the processing

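The calls of MMP1, MMP3, MMP10, MMP12 and the brightest TIMP3 probe set held under every alternative tried. A prior variance without trend lowered the counts most, with 2 of the MMP and TIMP genes higher and 1 lower with RB-KD than with Ctrl-KD in OIS and 1 lower in the RB-KD OIS state than in growing cells. In that fit the other MMP genes gave 1 higher and 0 lower in the RB-KD OIS state than in growing cells and 0 lower between the OIS states, the partners gave 3 lower in Ctrl-KD OIS and 2 lower in the RB-KD OIS state than in growing cells and 1 higher between the OIS states, and the adamalysins gave 3 lower in the RB-KD OIS state than in growing cells and 1 higher and 0 lower between the OIS states. With a gene's probe sets averaged, 1 MMP or TIMP gene and 1 other MMP gene were lower in the RB-KD OIS state than in growing cells, 3 partners were lower and 2 adamalysins higher in the Ctrl-KD OIS state than in growing cells, and between the OIS states 0 other MMP genes were lower and 1 adamalysin was higher and 0 lower. This averaging turned MMP2 to -0.17 in RB-KD OIS against growing cells and to -0.18 between the OIS states, and MMP16 to -0.0788 between the OIS states. The causes of these changes were not tested.

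No filter, the filter at percentile 70 and 1 probe set per gene each left 1 other MMP gene higher in the RB-KD OIS state than in growing cells. The filter and the single probe set also left 1 adamalysin higher between the OIS states, as did a fit on only the 2 states compared, which called 1 other MMP gene higher there. The offset of 12.5 and the replicate block each called 2 adamalysins lower between the OIS states. Quantile normalization turned MMP1 to -0.0357 and MMP3 to -0.0905 between the OIS states. Median centring turned TIMP2 (203167_at) to 0.0016 in Ctrl-KD OIS against growing cells, and TIMP3 to 0.0790 (201147_s_at) and 0.0056 (201148_s_at) in RB-KD OIS against growing cells. None of these, apart from MMP2, was called in its main comparison or in reverse.

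With each array left out in turn, other MMP genes higher ranged from 0 to 2 in Ctrl-KD OIS and from 0 to 2 in RB-KD OIS against growing cells and from 0 to 1 between the OIS states. Those lower ranged from 0 to 1, from 0 to 3 and from 0 to 1 in the same order. Adamalysins lower in the RB-KD OIS state than in growing cells ranged from 4 to 8, and between the OIS states those higher and those lower each ranged from 1 to 3. Signs changed without some array for 6 uncalled values, with ranges of -0.0682 to 0.103 for MMP3, -0.51 to 0.81 for MMP2 (1566678_at), -0.52 to 0.22 for MMP16 (207012_at) and -0.426 to 0.0844 for MMP16 (207013_s_at) between the OIS states, -1.15 to 0.16 for MMP2 (1566678_at) in Ctrl-KD OIS and -0.101 to 0.0380 for TIMP3 (201147_s_at) in RB-KD OIS against growing cells.

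The share of all probe sets called with RB-KD against Ctrl-KD in OIS was 7.42% with no filter, 31% with the filter at percentile 70, 32.5% with 1 probe set per gene, 3.79% without trend and 9% without the first RB-KD OIS array. Against growing cells the share called with 1 probe set per gene was 48% in RB-KD OIS and 52.5% in Ctrl-KD OIS. Replicates with the same number did not deviate together (r = 0.01, -0.01 and 0.04 over 30139 probe sets for the pairs of Ctrl-KD OIS and growing, RB-KD OIS and growing, and RB-KD and Ctrl-KD OIS), so the number was not taken as a pairing. The replicate block kept 63 of 66 member results on their side of the threshold. It added the calls of MMP14 (217279_x_at), with 0.64 in Ctrl-KD OIS against growing cells and 0.78 between the OIS states (adjusted p = 0.0281 and 0.0211), and ended that of MMP16 (207013_s_at, 1.14, adjusted p = 0.0578). With 2 arrays per state, small differences between the OIS states may go undetected.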
